A study of Drosophila melanogaster with 12 samples.

Results

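Antimicrobial peptide genes were examined in heads of adult Drosophila melanogaster over a light/dark day and the day of constant darkness that followed it. The set was 10 genes chosen by name: DptA, DptB, AttA, AttC, AttD, CecC, Drs, Mtk, Dro and Def. The platform annotation gives a probe set of its own to 5 of them (DptB, AttD, Drs, Mtk and Def), 1 probe set each, out of 10845 genes and 13966 probe sets tested. For DptA and Dro the annotation names no probe set, but the RefSeq gene table lists 1 probe set each among its synonyms, and these 2 are described beside the 5 and kept out of their counts. No probe set was found for AttA, AttC and CecC, which are not analysed here.

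All flies carried the yellow and white mutations (y w) and had first lived in a cycle of equal light and dark phases, each of 12 h. Arrays were made at 4, 8, 12, 16, 20 and 24 h of the light/dark day (LD; Zeitgeber time, ZT) and at the same hours of the dark day (DD; circadian time, CT), from pooled sieved heads, with 1 array per time point and 6 per day. No animal's age or sex is given in the sources used here, no flies were labelled as infected, and the dark day always came second, so darkness cannot be told apart from any other change between the days. The deposited values are log2 expression values, and every error below is the scatter of single arrays.

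Antimicrobial peptides are small cationic peptides that insects secrete into the hemolymph to kill bacteria and fungi. In Drosophila their genes are switched on by NF-kappaB factors of the Toll pathway (Dif and Dorsal) and the Imd pathway (Relish), chiefly in the fat body, the fly's counterpart of liver and adipose tissue, part of which lies in the head around the brain. Some are also made in barrier epithelia, hemocytes and reproductive ducts. The arrays hold RNA of the whole head, so fewer cells of a type and less RNA per cell cannot be told apart.

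The arrays were alike as a whole, with pairwise correlations from 0.956 to 0.995 and medians from 4.93 to 4.96. ZT4 and CT12 stood apart in the signal of 3' minus 5' control probe sets (mean over actin, GAPDH and eIF-4a), at 3.12 and 3.45 (log2); CT4 had 2.64 and the other arrays 1.69 to 2.20. Of 10 measured eye and neuron markers, 8 had a mean at or above the median of all probe sets. The 18 midgut markers, averaged after centring each gene, ran from -0.94 at CT16 to 1.24 at ZT12, and the 17 male accessory gland and testis markers reached 1.48 at CT12.

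Mtk encodes metchnikowin, a proline-rich peptide active against fungi and Gram-positive bacteria, and it varied more than the other genes of the set. Its LD values ran from 7.34 (log2) at ZT24 through a median of 8.41 to 9.89 at ZT4, and its DD values from 7.19 at CT24 through a median of 8.24 to 8.80 at CT16. The days overlapped, but ZT4 and ZT20 lay above all DD arrays and CT24 below all LD arrays. The whole range was 6.50-fold, and its SD over the 12 arrays, 0.769, exceeded that of 99.1% of all tested probe sets. ZT20 stood at 9.11. In ZT4, as in CT12, the 3' probe sets of the control genes stood farthest above the 5' ones. The part of this gap in the Mtk value at ZT4 was not tested.

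Drs encodes drosomycin, an antifungal peptide and the usual readout of Toll signalling. Its LD values ran from 6.24 at ZT24 through a median of 7.02 to 7.16 at ZT12, and its DD values from 6.44 at CT24 through a median of 7.34 to 7.62 at CT16. In each day a single array was low, the one at 24 h, while the other 5 lay within 0.4 (LD) or 0.6 (DD) of each other. The range over both days was 2.60-fold.

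Def encodes defensin, which acts on Gram-positive bacteria. It ran from 6.60 at ZT24 through a median of 6.68 to 7.39 at ZT8 in LD, and from 6.85 at CT24 through a median of 6.98 to 7.64 at CT4 in DD. The high values thus fell early in both days, at 8 h in one and at 4 h in the other, and from 12 h on both courses were nearly flat.

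DptB encodes a diptericin, a glycine-rich peptide active against Gram-negative bacteria. In LD it ran from 7.43 at ZT24 through a median of 7.95 to 8.12 at ZT20, and in DD from 7.24 at CT8 through a median of 7.36 to 7.73 at CT16. Here 5 LD arrays lay above all DD arrays, and ZT24 lay among the DD values. AttD, a member of the attacin family, stayed between 4.77 and 5.09, a 1.25-fold range, at a level close to the array medians, with an SD above that of only 16.4% of probe sets. Whether its signal rose above background was not measured.

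The probe set tied to DptA, the second diptericin gene and the neighbour of DptB on chromosome arm 2R, ran from 4.42 at ZT24 through 4.88 to 5.28 at ZT16 in LD (lowest, median, highest) and from 4.50 at CT24 through 4.63 to 5.41 at CT16 in DD. Its mean over all arrays was 4.81, under every array's median. The probe set tied to Dro, which encodes the proline-rich peptide drosocin, ran from 5.61 at ZT24 through 5.82 to 6.37 at ZT16 in LD and from 5.67 at CT24 through 5.86 to 6.13 at CT16 in DD. Both were highest at 16 h on both days, as were 1.88% of all probe sets, and lowest at 24 h on both. The 133 probe set names among RefSeq synonyms could be checked for 113 that the platform annotation also names: 111 gave the same gene and 2 gave it among several.

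**Figure D1:**
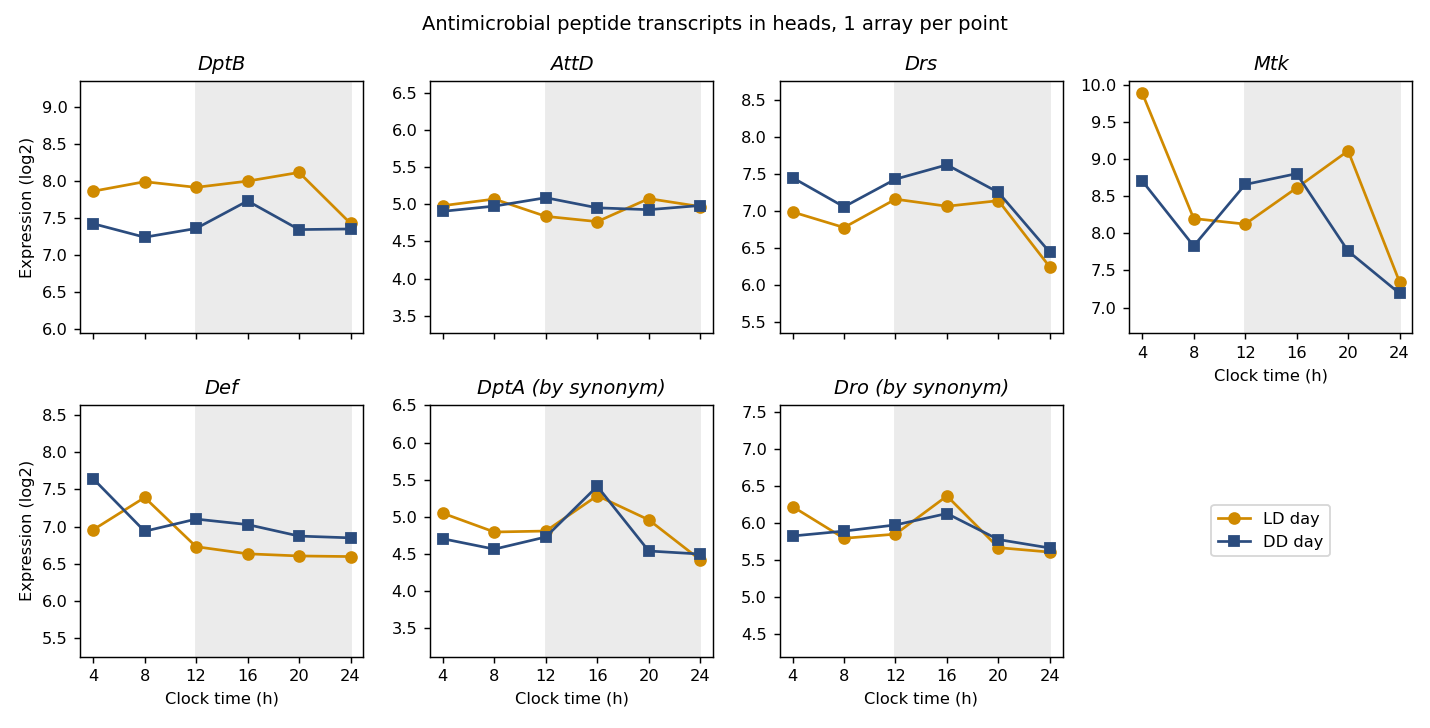
Expression (log2) of each gene against clock time (h), 1 array per point, for the LD day (circles) and the DD day (squares), on axes of equal height; the shaded part is the dark phase in LD and the subjective night in DD. Drs and Mtk dip at 24 h on both days, the DptB points of LD lie above those of DD at each hour, least so at 24 h, and AttD has the smallest range.

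**Figure D2:**
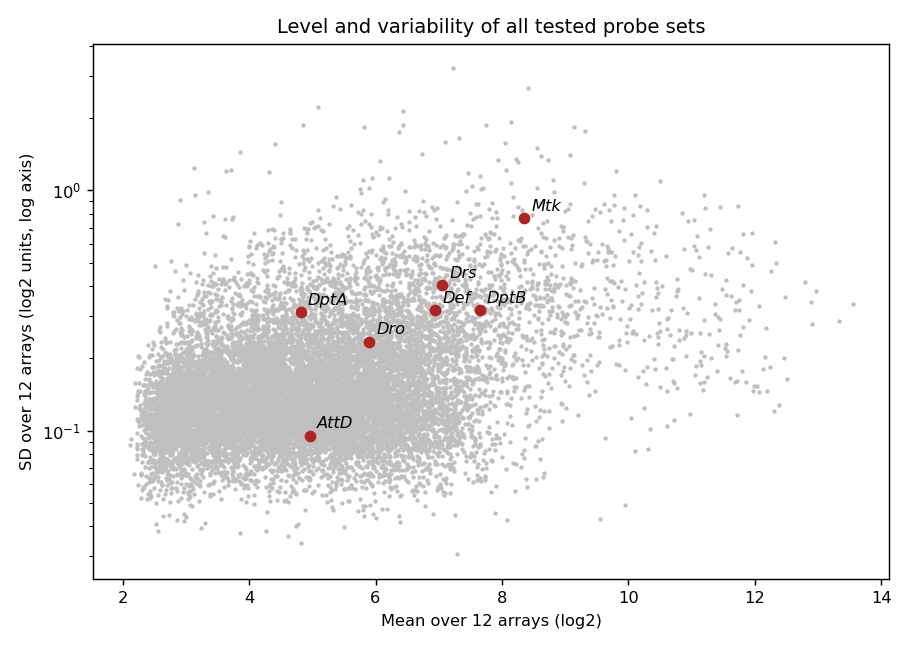
Mean over the 12 arrays (log2) against the SD over the same arrays (log axis) for all tested probe sets, with the 7 probe sets described here marked. Mtk lies above 99.1% of probe sets in SD and AttD above 16.4%.

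The hour of the lowest value was shared by several of the genes. Drs, Mtk and Def had their lowest array at 24 h on both days, 3 of the 5 genes, and so did DptA and Dro. Among all probe sets 2.75% (384 of 13966) did so. The pattern was picked out after the values were seen, and it rests on 1 array a day.

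For Mtk the 24 h value lay below the mean of the other 5 arrays by 2.72-fold in LD and 2.24-fold in DD, and the gap to the next lowest array was 0.78 and 0.57 (log2). For Drs the corresponding folds were 1.72 and 1.89, with gaps of 0.534 and 0.615. For Def the folds were 1.20 on both days, but the gaps were 0.008 and 0.024, so its lowest hour could not be set apart from 20 h. The dip of DptA was 1.47-fold in LD and 1.22-fold in DD, with a gap of 0.041 in DD. The dip of Dro was 1.29-fold and 1.19-fold. DptB had its lowest LD value at 24 h as well, 1.46-fold below the others, but in DD its 24 h value differed from them by 1.05-fold.

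The upstream lists can be set beside the 2.75% of all probe sets that were lowest at 24 h on both days. Lists this short hold few such genes at that share, so the counts do not show whether a list shared the hour. Lowest at 24 h on both days were 0 of 13 measured Imd pathway genes, 1 of 15 Toll pathway genes (spz, which encodes the Toll ligand), 1 of 10 Imd inhibitor genes (POSH) and 0 of 4 Toll inhibitor genes. Among 15 other immune-induced peptide and lysozyme genes it was 1 (BomBc2, a bomanin gene), and among 6 other antimicrobial peptide genes 0. It was 0 of 13 fat body markers and 1 of 13 hemocyte markers (eater).

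The design asked whether transcripts follow a 24 h rhythm. With a cosine and sine of clock time fitted over both days in limma, 0 of the 5 genes had an adjusted p under 0.05, against 0.00716% of all probe sets. Since that share is 1 of 13966 probe sets, the count of 0 says little about the 5 genes. At an unadjusted p under 0.05 there was 1 of the 5 (Def), against 3.34%. Drs had the highest fitted amplitude of the 5, 0.31 ± 0.121 (log2, SE), which is a 1.55-fold peak-to-trough ratio, and a fitted peak at 13.4 ± 1.47 h (limma adjusted p 0.994). Without ZT24 and CT24 the amplitude of Drs was 0.12, below those of Mtk (0.38) and Def (0.26), and without ZT4 that of Mtk was 0.46 and that of Drs 0.38, so the order of the genes rests on single arrays. Def had an amplitude of 0.27 ± 0.0922 and a fitted peak at 6.83 ± 1.33 h (limma adjusted p 0.994). For Mtk the amplitude was 0.21 ± 0.298, smaller than its error, and in fits to each day alone it was 0.15 ± 0.462 in LD and 0.52 ± 0.291 in DD. DptB had 0.14 ± 0.0747 and AttD 0.034 ± 0.0471. The fitted peaks of DptA and Dro were 14.8 ± 1.75 h and 12.7 ± 2.23 h, with ratios of 1.38 and 1.23, and their adjusted p was 0.994 too.

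The LD and DD courses can also be set against each other hour by hour, which gives 6 points a gene. For Drs Pearson's r was 0.924 (exact permutation p 0.0306, adjusted 0.214 over the 7 probe sets; Spearman's rho 0.543, exact p 0.297, adjusted 0.489). Without the 2 hours farthest from the LD median it was -0.441, so the relation rests on those hours, 24 h among them. For Dro r was 0.722 (exact p 0.110, adjusted 0.266; rho 0.829, exact p 0.0583, adjusted 0.408), and without the 2 farthest hours 0.990. For DptA r was 0.760, for Mtk 0.559, for Def 0.217, for DptB 0.139 and for AttD -0.415, with exact p from 0.114 to 0.682. Without the 2 farthest hours these were 0.0982 for DptA, -0.357 for Mtk, 0.902 for Def, 0.254 for DptB and 0.0115 for AttD, so 6 points a gene do not settle how alike the days were. The median over all probe sets was 0.0721, with quartiles of -0.268 and 0.405. A test of whether the 24 h rhythm differed between the days called 0 of the 5 genes in limma, against 0% of all probe sets, and 0 had an unadjusted p under 0.05, against 3.53%.

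The second comparison set the level in DD against that in LD, from the same fit. DptB was lower in DD at all 6 clock times, as were 1.67% of all probe sets. Its LD mean was 7.89 ± 0.240 and its DD mean 7.41 ± 0.168 (log2, SD over 6 arrays each), which gives a difference of -0.48 ± 0.106 (SE) or 1.39-fold. This ranked 43rd by p among 13966 probe sets and did not pass (limma adjusted p 0.292). With each array left out in turn it passed only without ZT24 (-0.56, limma adjusted p 0.0489), the array whose DptB value went against the difference, which gives that pass no weight of its own; with any of the other 11 left out the adjusted p was 0.348 to 0.795.

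Drs differed the other way, being higher in DD at all 6 clock times, as were 2.03% of probe sets. It was 7.21 ± 0.422 in DD and 6.89 ± 0.348 in LD, a difference of 0.31 ± 0.171, and the 2 days overlapped (limma adjusted p 0.999). Def was higher in DD at 5 of 6 times, by 0.25 ± 0.130. For Mtk the difference, -0.39 ± 0.422, was smaller than its error, with a 95% interval from -1.32 to 0.54. For AttD it was 0.022 ± 0.0666 with an interval from -0.12 to 0.17, for DptA -0.14 ± 0.150 and for Dro -0.041 ± 0.125. These had a limma adjusted p of 0.999. In all, 0 of the 5 genes passed, against 0.0859% of all probe sets (0.0573% higher and 0.0286% lower). At an unadjusted p under 0.05 there was 1 of the 5, DptB, which was lower in DD, as were 2.08% of probe sets; 0 of the 5 were higher, against 2.33%, and both directions together held 4.41%. In 0 of the 5 genes did the days not overlap, against 0.279% of probe sets with DD wholly above LD and 0.129% with DD wholly below. The median difference over the 5 genes was 0.022, with 3 higher and 2 lower in DD. Over all probe sets 6979 were higher and 6987 lower.

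**Figure D3:**
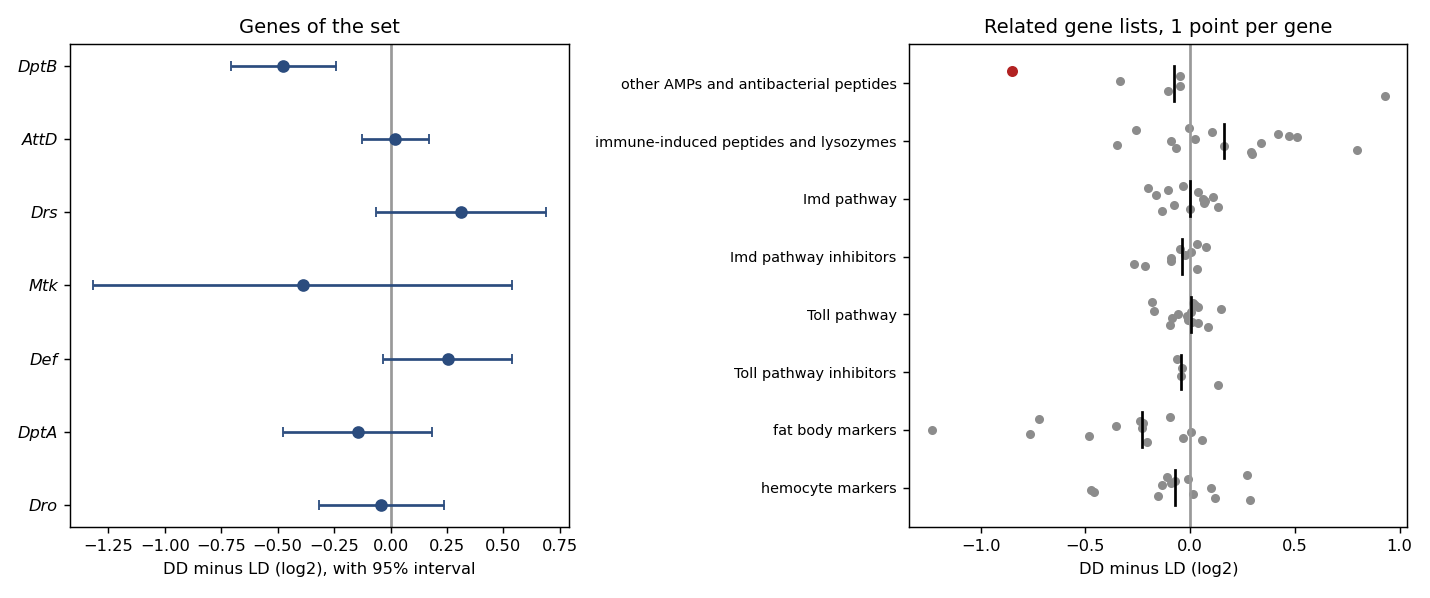
DD minus LD differences (log2): left, the 7 probe sets with 95% intervals from limma; right, 1 point per gene of the related lists, with the list median as a bar and the gene past an adjusted p of 0.05 in red. The interval of DptB, from -0.71 to -0.24, excludes 0 before adjustment over all probe sets, and among the lists drawn Listericin is the one gene in red.

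The level of DptB moved with fat body markers. Averaged after centring each gene, the 13 measured fat body markers ran from -0.056 (ZT24) to 0.27 (ZT8) in LD and from -0.38 (CT8) to 0.039 (CT16) in DD. Of the 13, 11 were lower in DD, as were 6987 of 13966 probe sets. ZT24, the LD array with low DptB, had the lowest fat body score of its day, and CT16, the DD array with the highest DptB, had the highest.

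Over the 12 arrays Pearson's r between DptB and this score was 0.921 (permutation p 2e-05, adjusted 6e-04 over the 30 pairs of 5 genes and 6 scores) and Spearman's rho 0.902 (adjusted p 0.0042). Within LD r was 0.936 and within DD 0.741. It was 0.968 without the 2 arrays of most extreme score. Since DptB was high in 6 arrays and low in 6, the pooled r is partly a contrast of those. The permutations shuffled all 12 arrays regardless of day and hour, so their p takes in the shift of both series between the days. No p was computed within a day. Without ZT24 the LD r was 0.595 over 5 arrays, and without CT16 the DD r was 0.611 over 5.

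Gene by gene, 11 of the 13 fat body markers had a positive r with DptB, with a median of 0.426, against 49.0% of all other genes and a median of -0.009. The closest were fit, a female-biased head fat body gene (0.762), Lsd-1, which encodes a perilipin of lipid droplets (0.729), the storage protein gene Lsp2 (0.693) and Obp99b (0.657). For Yp1, Yp2 and Yp3, which encode yolk proteins, r ran from 0.361 to 0.478, and Fbp1 had -0.463. With the fat body score as a covariate the DD minus LD difference of DptB was -0.11 ± 0.126 in place of -0.48 (limma adjusted p 1.0). The same covariate moved the differences of Drs and Def up, from 0.31 to 0.62 ± 0.284 and from 0.25 to 0.64 ± 0.180, and neither passed (limma adjusted p 1.0). The score itself differed between the days (means 0.17 in LD and -0.17 in DD), so the covariate overlaps with the regime term. With it 0 of all probe sets passed, against 12 without it. This fit cannot separate the score from the day, and the part of the fat body in the DptB difference was not tested.

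DptB also ran opposite to the 12 thoracic muscle markers, whose score was -0.75 to -0.0075 in LD and -0.23 to 1.27 in DD. Pearson's r was -0.823 (permutation p 9e-04, adjusted 0.0134; rho -0.839, adjusted p 0.0211), -0.649 within LD, -0.620 within DD, and -0.928 without the 2 arrays of most extreme score. With this score as a covariate the difference of DptB was -0.19, that of Drs 0.60 and that of Def 0.46, and none passed. The muscle score too differed between the days (means -0.42 in LD and 0.42 in DD), so this fit has the same limit. The 7 trachea and barrier epithelium markers, which also stand for a site of peptide expression, were all higher in DD, as were 6979 of 13966 probe sets. Their scores were -0.31 to -0.044 in LD and 0.00060 to 0.46 in DD. Of the 7 markers 1 passed, higher in DD, against 0.0573% of all probe sets. This was Gasp, which encodes a chitin-binding protein, at 1.04 ± 0.146 (limma adjusted p 0.0323). The call was lost with the fat body, muscle or male tract score as a covariate and without most single arrays (limma adjusted p 0.00874 to 0.148 with 1 left out). In this list 5 of the 7 had an unadjusted p under 0.05, each higher in DD, against 2.33% of all probe sets. Higher levels in DD were not particular to this list. All 17 male accessory gland and testis markers and 11 of the 12 thoracic muscle markers were higher in DD too. At an unadjusted p under 0.05 these were 1 of the 17 and 7 of the 12. The part of the trachea and barrier epithelium list in the peptide results was not tested. None of the other 28 pairs of the 5 genes with fat body, hemocyte, midgut, male tract and muscle scores and the control signal had an adjusted p under 0.05. For Mtk and the hemocyte score r was 0.704 (permutation p 0.0106, adjusted 0.106; rho 0.580, adjusted p 0.426), with 0.892 in LD and 0.00889 in DD. For Drs and the fat body score r was -0.0904, with 0.814 in LD and 0.162 in DD.

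**Figure D4:**
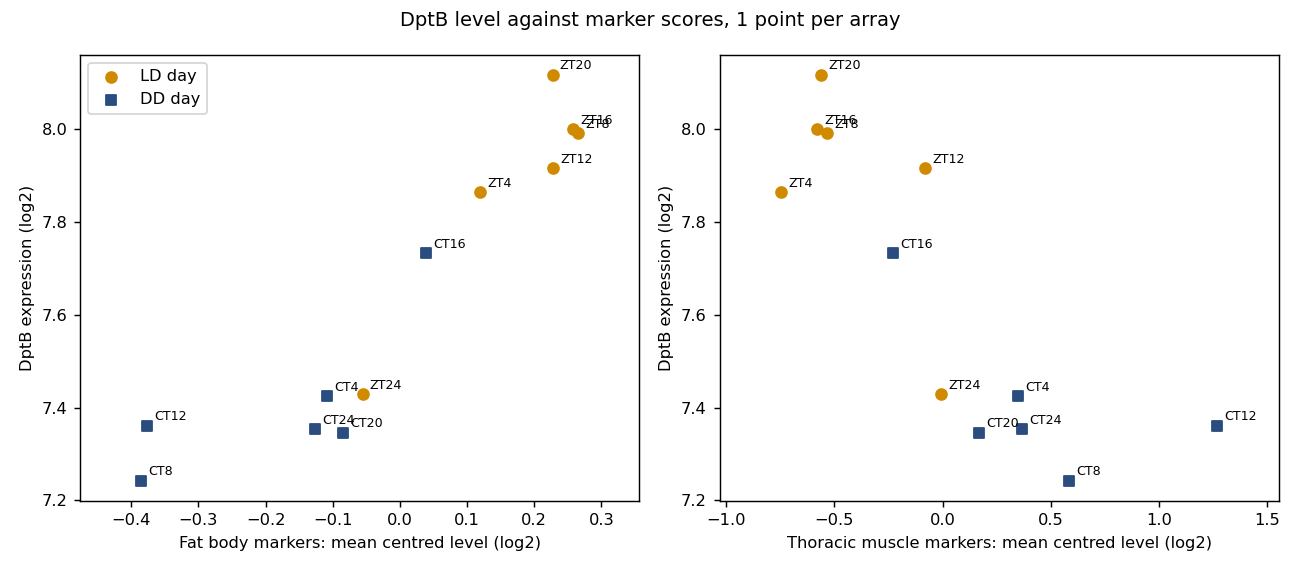
DptB expression (log2) against the mean centred level (log2) of fat body markers (left) and thoracic muscle markers (right), 1 labelled point per array, LD as circles and DD as squares. ZT24 lies with the DD arrays and CT16 nearest to the LD arrays on both panels.

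Over the 10 pairs of the 5 genes r ran from -0.211 to 0.559 with a median of 0.139. The median was 0.469 in residuals of the rhythm and regime model and 0.0105 without ZT24 and CT24, so how closely the genes varied together depends on both. Over pairs of all genes the median was 0.004, with quartiles of -0.269 and 0.280. Drs and Mtk had the highest r, 0.559 (permutation p 0.0601, adjusted 0.308 over 10 pairs; rho 0.476, adjusted p 0.542), with 0.644 within LD and 0.924 within DD. Without ZT24 and CT24 it was 0.0517, and within LD it was 0.100 without ZT24, while within DD it was 0.896 without CT24. DptB and Mtk had 0.555 (permutation p 0.0616, adjusted 0.308; rho 0.524, adjusted p 0.542), with 0.576 in LD and 0.589 in DD, and 0.479 without the 2 arrays of most extreme DptB, but -0.184 within LD without ZT24. Drs and Def had 0.375, AttD and Def 0.223, and Mtk and Def 0.187. The lowest were DptB with Def (-0.211), DptB with AttD (-0.103) and AttD with Drs (-0.101), and none of these pairs had an adjusted p under 0.05.

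DptB and Drs had an r of 0.0794 over all arrays, 0.879 within LD and 0.540 within DD. The LD value rests on ZT24, which was low for both: over the other 5 LD arrays r was 0.156, and over 5 DD arrays without CT24 it was 0.876. The mean of DptB was lower in DD and that of Drs higher, neither past the threshold. Of the 11 pairs that hold DptA or Dro, DptA with Dro was closest, with r 0.779 (permutation p 0.0031, adjusted 0.0343; rho 0.741, adjusted p 0.0434), 0.830 within LD, 0.864 within DD and 0.593 without ZT16 and CT16. DptA had r 0.706 with Mtk (permutation p 0.0101, adjusted 0.0554; rho 0.790, adjusted p 0.0385) and 0.679 with DptB (permutation p 0.0154, adjusted 0.0563; rho 0.692, adjusted p 0.0583), its neighbour and near relative, and whether the 2 probe sets tell these related genes apart was not tested.

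**Figure D5:**
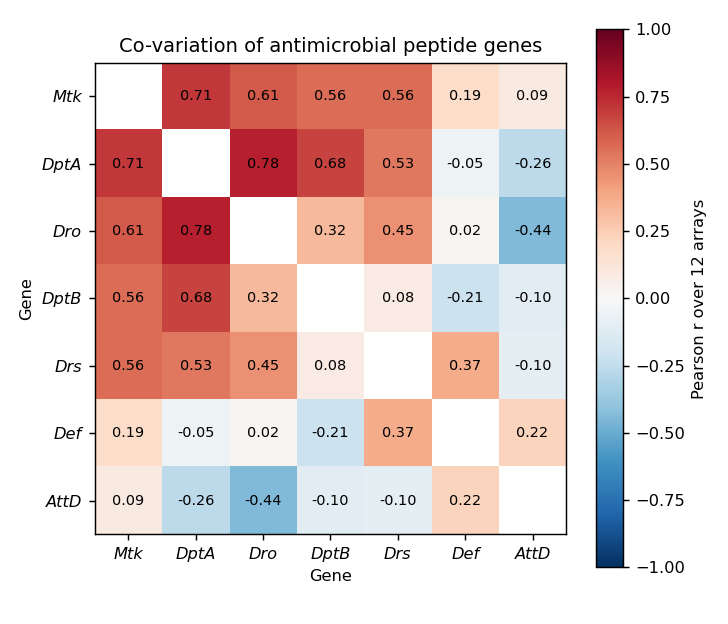
Pearson r over the 12 arrays between each pair of the 7 probe sets, from -1 (blue) to 1 (red). The highest values are those of DptA with Dro (0.779), Mtk (0.706) and DptB (0.679), while AttD and Def have r of 0.375 or lower with the others.

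The 10 genes whose course was most like the mean of the 5 (each centred on its own mean) were sought among 5419 other genes at or above the median level, over 12 arrays. They were Ntf-2, a nuclear transport factor gene (r 0.875), the checkpoint gene Rad9 (0.844), IM33, an immune-induced peptide gene (0.840), CG1468 (0.830), CG16713 (0.828), CG1074 (0.823), CG16978 (0.820), kune, a claudin gene (0.817), ebi (0.815) and CG5104 (0.811). Within LD their r lay between 0.767 and 0.999 and within DD between 0.631 and 0.924. These genes were picked as the highest of 5419 on the same 12 arrays, so all these r are high by selection. The r that chance would give was not determined. IM33, CG16713 and CG16978 ranged 3.45-fold, 4.44-fold and 4.46-fold. Ntf-2, IM33, CG16713, CG16978 and CG5104 were highest at ZT4, as were Mtk and 15.3% of all tested probe sets. ZT4 is among the arrays in which the control genes had the widest gap between 3' and 5' probe sets. Rad9 and CG1074 ranged 1.27-fold and 1.30-fold. The genes were not scaled, so the mean course leans most on Mtk, which had the highest SD of the 5 (0.769). The r of Mtk with the mean of the other 4 genes was 0.702, against 0.0509 for AttD.

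The third comparison set LD minus DD in the lit hours against LD minus DD in the dark hours. It called 0 of the 5 genes in limma, against 0% of all probe sets, and 0 had an unadjusted p under 0.05, against 3.83% (1.57% higher in the lit hours and 2.26% lower). The estimates ran from -0.098 ± 0.518 for Mtk to 0.21 ± 0.197 for DptB (log2, SE), and only that of DptB exceeded its SE. Without ZT4 and CT12 the estimate of Def was 0.76 ± 0.137 in place of 0.10 ± 0.276 (limma adjusted p 0.257).

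The lists of pathway genes around the antimicrobial peptides had lower median SDs over arrays than the 5 peptide genes. The median SD was 0.194 for the 13 measured Imd pathway genes, 0.180 for 10 Imd inhibitor genes, 0.199 for 15 Toll pathway genes and 0.237 for 4 Toll inhibitor genes. It was 0.319 for the 5 peptide genes, of which AttD had only 0.0954. For the 15 immune-induced peptide and lysozyme genes it was 0.710, and for all probe sets 0.141. No test of these medians was made, and the lists were not matched for level. A mean at or above the median of all probe sets was held by 6 of 13 Imd, 7 of 10 Imd inhibitor, 9 of 15 Toll and 4 of 4 Toll inhibitor genes. Mtk, DptB, Drs and Def each had a mean above that of at least 88.1% of probe sets. In DD minus LD, 0 members of the Imd, Imd inhibitor, Toll and Toll inhibitor lists passed in limma in either direction, against 0.0859% of all probe sets. At an unadjusted p under 0.05 there was 1 of 42 (2.38%), lower in DD, against 4.41% of all probe sets in both directions and 2.08% lower. This was PGRP-LB, which encodes an amidase that degrades peptidoglycan and dampens Imd signalling, and which differed by -0.22 ± 0.0714 (limma adjusted p 0.902). The next in these lists by p were Diap2, which encodes a ubiquitin ligase of the Imd pathway (-0.14), Fadd (0.13), PGRP-LF (0.071), pirk (0.077), PGRP-SB1 (-0.27), grass (0.15), tub (-0.18), Dif (0.086), Spn27A (0.13), nec (-0.062) and Spn88Ea (-0.042). Rel, which encodes Relish, had a DD minus LD difference of 0.063 ± 0.171. In the rhythm test 0 members of these lists had an unadjusted p under 0.05, against 3.34% of all probe sets.

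Of 6 other antimicrobial peptide genes with a probe set, 1 passed in DD minus LD, lower in DD, against 0.0286% of all probe sets. This was Listericin, with 9.12 ± 0.186 in LD (SD, n = 6) and 8.27 ± 0.392 in DD (limma adjusted p 0.0135). The call was lost with the fat body score (-0.77, limma adjusted p 1.0) or the muscle score (-0.94, limma adjusted p 0.843) as a covariate and in a fit without clock time (limma adjusted p 0.108). With 1 array left out the adjusted p ran from 0.00112 to 0.0719; it was over 0.05 without ZT16, CT4, CT8, CT16 or CT20. It was highest at ZT24 (9.48), the hour at which Drs, Mtk, Def and DptB were lowest in LD. Drsl5, a drosomycin-like gene, differed by -0.34 ± 0.175 and Anp, the andropin gene of the male ejaculatory duct, by 0.93 ± 0.602. Of the 15 immune-induced peptide and lysozyme genes 0 passed in limma, against 0.0859% of all probe sets. At an unadjusted p under 0.05 there was 1 (LysS, lower in DD), against 2.08% of all probe sets lower. LysS differed by -0.26 ± 0.0828, BomBc2 by 0.30 ± 0.147 and BomS2 by 0.80 ± 0.537. Of 13 hemocyte markers 0 passed in limma, against 0.0859% of all probe sets, with 5 higher and 8 lower in DD. At an unadjusted p under 0.05, 2 were higher and 2 lower, against 2.33% and 2.08% of all probe sets. PPO1 and PPO2, prophenoloxidase genes, differed by -0.46 ± 0.0989 and -0.47 ± 0.156. In the same list vkg, a collagen gene, differed by 0.27 ± 0.0685, Col4a1 by 0.29 ± 0.125 and lz by -0.010 ± 0.117.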

How the data were processed

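The authors deposited 1 log2 value for each probe set and array. RMA is named in the submitters' processing notes, without a version or the arrays processed together. Since RMA aligns the distributions of the arrays, a shift of most transcripts together is hidden. Values were used as deposited. Of 14010 probe sets, 44 controls were left out. Names came from the platform annotation, updated through RefSeq (Release 6).

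Tests used limma 3.58.1 in R 4.3.3 over 13966 probe sets with Benjamini-Hochberg adjustment at 0.05: regime with cosine and sine of clock time (8 residual degrees of freedom), a light term with regime and clock time factor (4), and regime by cosine and sine (6). They were tested on simulated data. Correlations used 100000 permutations of the arrays regardless of day and hour, or all permutations of the hours for 6 points. Alternatives were normalization, a filter on dim probe sets, left-out arrays, a clock time block, and marker or control scores as covariates. The members and gene lists were chosen with earlier results of these data known, and the hour of the lowest value, DptB without ZT24, and its course with single fat body genes were looked at after the values were seen. Members and the first genes of each list by p are named. The number of arrays limits precision. No sequence is printed.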

Additional observations from a re-analysis of the deposited data

Results flagged for a closer look

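In 4 of the 14 groups of 6 arrays (7 probe sets in each day), 1 array lay far from the others for the spread of its group; chance gives about 1 such group in 20. DptA at CT16 was 5.41 (log2), with the nearest DD array at 4.73, and DptB at CT16 was 7.73, with the nearest at 7.42. DptB at ZT24 was 7.43, with the nearest LD array at 7.86. Def at CT4 was 7.64, with the nearest DD array at 7.10. CT16 was thus apart for both diptericin genes. Its fat body score, 0.039, was the highest of the DD arrays, and that of ZT24, -0.056, the lowest of the LD arrays.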

How the results depend on the processing

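The count of the 5 genes past the threshold was 0 under 24 alternatives for rhythm and 16 each for light (10 of them distinct) and for the rhythm difference; for the last 2 tests 0 of all probe sets passed under any of these, so that count carries no information on the 5 genes. For DD minus LD it was 0 to 1 with 1 array left out (1 only without ZT24) and 0 in the others. For rhythm the count over all probe sets ran from 0 to 2 (1 as reported), so its 0 of the 5 genes says little. For DD minus LD the count over all probe sets ran from 0 to 30 (12 as reported). It was 0 with the fat body or the muscle score, 30 with the 3' minus 5' control signal, 1 without CT4 and 22 without CT24. DptB kept its sign in all 24, from -0.56 to -0.11. Arrays at the same clock time correlated in their deviations from the day means from -0.0034 to 0.547, and 3 of 12 correlated best with their own hour, so the shared hour is not taken as a pairing; with clock time as a replicate block 0 of the 5 genes and 11 probe sets passed.

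Differences that were not called changed sign as follows, the cause not tested. Without ZT4 and CT12, DD minus LD was 0.017 for DptA, -0.016 for AttD and 0.089 for Dro, and the light term 0.11 for AttD, 0.010 for Drs and -0.12 for Dro. With the fat body score, DD minus LD was 0.22 for DptA, -0.037 for AttD, 0.096 for Mtk and 0.056 for Dro. With the muscle score it was 0.29, -0.021, 0.33 and 0.19 in that order, and with the male tract score -0.0027 for AttD. With 1 array left out, DD minus LD ran from -0.016 to 0.058 for AttD and from -0.096 to 0.060 for Dro. The light term then ran from -0.094 to 0.10 for AttD, -0.18 to 0.041 for Drs, -0.52 to 0.36 for Mtk, -0.13 to 0.14 for Dro and -0.23 to 0.35 for Def. The median r of the 10 pairs, 0.139, was 0.469 in residuals of the rhythm and regime model, 0.0105 without ZT24 and CT24, and 0.082 to 0.190 with 1 array left out. Alternatives with other probe sets of a gene could not be made, since each gene had 1. The covariates of male tract and muscle scores, the removal of both 24 h arrays and the addition of DptA and Dro were chosen after seeing the data.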

Other observations

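Of the 15 immune-induced peptide and lysozyme genes outside the set, 11 were highest in ZT4 or CT12, as were 32.3% of all probe sets. In these arrays the 3' probe sets of the control genes stood farthest above the 5' ones. BomBc2 and BomT3 were highest at CT16, BomBc3 at CT4 and LysX at ZT12. The bomanin genes BomS5, BomT2 and BomS2 had their highest value at CT12 (11.42, 9.34 and 7.35, log2) and ranged 6.26-fold, 6.45-fold and 7.31-fold, and BomS6 was highest at ZT4 (11.68) and ranged 5.87-fold. The lysozyme genes LysB, LysD and LysE, near-identical digestive enzyme genes of the midgut whose values are uncertain where they share probe signal, were also highest at CT12, where the midgut score was 1.05, and ranged 8.44-fold, 12.7-fold and 11.3-fold. Anp reached 9.09 at CT12 against 4.85 at ZT16, in the array with the highest male tract score. Of the 5 antimicrobial peptide genes, AttD had its highest value at CT12 and Mtk at ZT4.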
